A study of Mus musculus with 10 samples.

Results

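The comparison described here asks whether the step between the outer and the inner cell layer is the same in the secretory coil of the mouse sweat gland as in its duct. For each gene the gland layer difference (myoepithelial minus luminal) was set against the duct layer difference (duct basal minus duct suprabasal), and the first minus the second is called the interaction. It uses 8 of the 10 arrays of the series, which are 2 arrays each of 4 sorted populations: gland myoepithelial, gland luminal, duct basal and duct suprabasal cells. The remaining 2 arrays are of palmoplantar epidermis, which enters the estimate of the spread but not the comparison. All cells were sorted by fluorescence from the paw pads of female mice that were wild-type on a CD1 background, and nothing else distinguishes the groups by genotype or treatment. The labels used here give neither the sorting markers, nor the age of the mice, nor the number of mice behind an array. Within a population the arrays are labelled as biological replicates 1 and 2, and p-values measure only the spread between such arrays.

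A sweat gland is a coiled tube that opens onto the skin through a straight duct. In the coil, contractile myoepithelial cells lie on the basement membrane around luminal cells that secrete salt and water. In the duct, basal keratinocytes lie on the basement membrane and suprabasal cells line the lumen and take salt back. Myoepithelial and duct basal cells are therefore the outer layers, and luminal and duct suprabasal cells the inner ones.

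Values are microarray signals on a linear scale, and differences are on the log2(signal + 12) scale, which understates changes of genes with low signal. A positive interaction means that a gene leaned further towards the outer layer in gland than in duct. Of 12393 genes with a probe set of their own, 9304 passed the filter on low signal and were tested with limma, with Benjamini-Hochberg adjustment over all of them and a threshold of 0.05. Genes that passed were sorted by their 2 layer differences. A gland-only gene passed in gland, and in duct it neither passed nor differed by 1 or more on the log2 scale. Duct-only genes are the mirror image, and opposite genes passed in both structures with opposite signs. Same-direction genes passed in both with one sign and unequal size, and all others are called unsorted.

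The interaction passed for 1467 of 9304 genes (15.8% of genes tested), with 921 positive (9.9%) and 546 negative (5.87%). Gland-only genes were the most numerous with 737 (7.92%), followed by 312 duct-only genes (3.35%). The opposite class held 130 genes (1.4%) and the same-direction class 68, and 220 stayed unsorted (2.36%), of which 39 had a negative sign (0.419%). The interaction count moved by over 1.5 times without 1 array in 4 cases: it was 615 without duct basal array 2, 651 without myoepithelial array 2, 689 without luminal array 2 and 749 without luminal array 1. Under quantile normalization 50.9% of the called interactions were positive, against 62.8% in the fit reported.

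The gland layer difference alone passed for 2890 genes (31.1%), of which 1539 were higher in myoepithelial cells (16.5%) and 1351 in luminal cells (14.5%). The duct layer difference passed for 1505 genes (16.2%), of which 738 were higher in basal cells (7.93%) and 767 in suprabasal cells (8.24%). Without duct basal array 2 the duct count was 430, and without myoepithelial array 2 the gland count was 1422. They had 672 genes in common, which is 23.3% of the gland genes and 44.7% of the duct genes. Of these 672, 542 pointed the same way, and for 474 of the 542 the interaction did not pass. Of 2218 genes that passed in gland and not in duct, 1371 did not pass the interaction, so a pass in one structure alone did not show that the structures differed. Across genes, which are not independent replicates, the gland and duct differences correlated with Pearson's r = 0.245 and Spearman's rho = 0.238 (n = 9304 genes, no array in common).

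**Figure D1:**
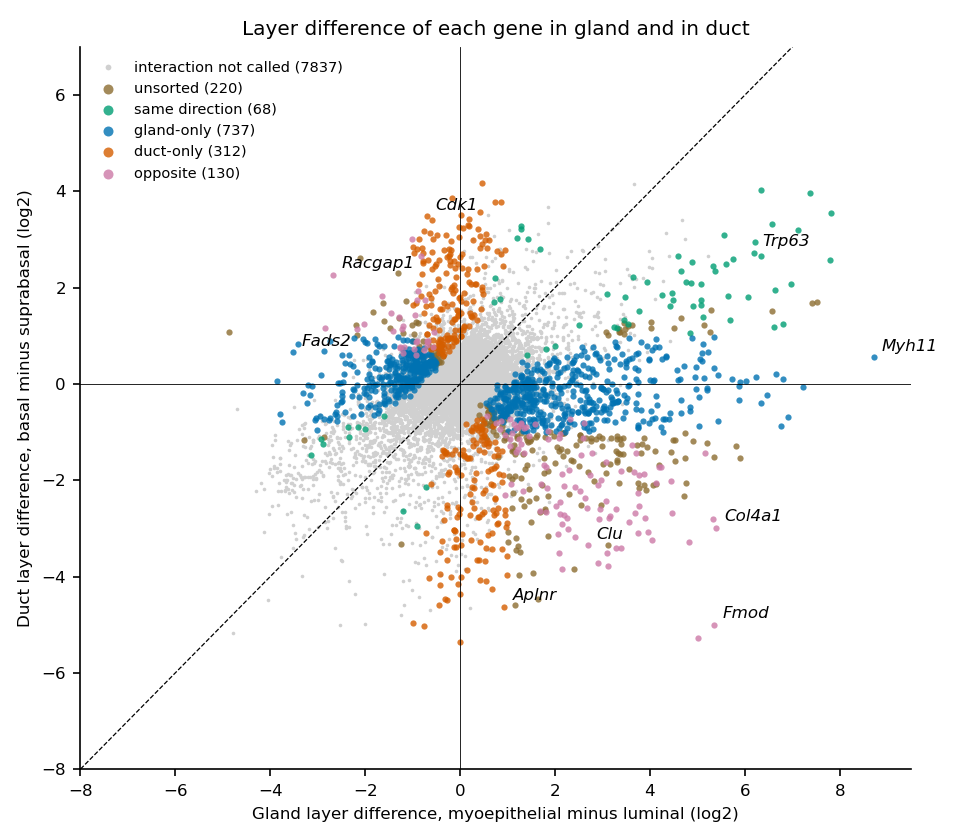
Each point is 1 of 9304 genes, with its gland layer difference on the horizontal and its duct layer difference on the vertical axis (both log2), coloured by class. On the dashed line both are equal; gland-only genes spread along the horizontal axis, duct-only genes along the vertical axis, and opposite genes lie mostly at the lower right.

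The labels were checked against markers. Myh11, Acta2 and Cnn1 were highest on both myoepithelial arrays, Krt8, Krt18 and Aqp5 on both luminal arrays, and Krt5 and Krt14 on both duct basal arrays. Trp63, also a duct basal marker, was higher on the myoepithelial arrays (3807 and 4738) than on the duct basal arrays (3631 and 3004). Of the duct suprabasal markers, Krt6a (13060 and 8107 against 5351 and 8285 on the duct basal arrays), Krt10 and Notch3 overlapped between the duct layers. Only Scnn1b separated these layers, with 538.5 and 391 against 68.7 and 74.7. On the duct suprabasal arrays Krt8 had 10825 and 4438, so these arrays also held transcripts of single-layered epithelium. Whether such transcripts came from the duct layer itself or from luminal cells of the gland was not tested. Arrays of 1 population agreed unequally: the log2 values of the 2 duct suprabasal arrays correlated with r = 0.908 over genes tested, and those of the other 4 populations with r between 0.963 and 0.981. Between the duct suprabasal arrays 1864 genes were over 2-fold apart, against 501 to 816 in the other populations. The summed signal of 10 fibroblast markers was 95914 on the second of them and 17265 on the first, and that of 10 endothelial markers 29626 and 6675. Myoepithelial array 1 held more signal of simple epithelial genes than array 2 (28789 and 14072 over 20 genes). So did duct suprabasal array 1 against its array 2, with 68800 and 29003 over the same genes. For 18 genes of secretory coil ion transport the duct suprabasal sums were 118254 and 76953, against 122552 and 180631 on the luminal arrays. For 12 genes of ductal ion absorption they were 42622 and 23446, against 58445 and 76647 on the luminal arrays.

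Gland-only genes that were higher in myoepithelial cells numbered 446 (4.79% of genes tested), and 411 of them were higher there than in the other 3 sweat gland populations. Over all genes this held for 2591 of 9304. Classes were sorted by these same population means, so such counts are partly set by the sorting, here and below. Smooth muscle genes led the class. All 13 tested members of an 18-gene contractile list passed the interaction with a positive sign, against 9.9% of all genes, and the median interaction of the list was 5.87 against 0.05 over all genes. The filter asks for 2 of 10 arrays, so the 2 myoepithelial arrays alone can meet it. Measured members that were low there and elsewhere stayed untested, so the share of 13 was partly set by the filter. Of the 13, 11 were gland-only. The summed signal of the 17 measured members was 201200 and 297522 on the myoepithelial arrays, and between 8897 and 10705 on the 6 luminal, duct basal and duct suprabasal arrays.

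Myh11, the smooth muscle myosin heavy chain, had signals of 18782 and 19074 on the myoepithelial arrays and 23.3 and 45.7 on the luminal arrays. In the duct it had 132 and 49.7 on the basal arrays and 75.2 and 35.3 on the suprabasal arrays, so that the duct layers overlapped. Its gland layer difference was 8.71 ± 0.46 and its duct layer difference 0.55 ± 0.46 (log2 ± SE, 2 arrays per population), and the interaction was 8.16 ± 0.65 (limma adjusted p = 0.000297). Cnn1, the actin-binding protein calponin, had signals of 12770.2 and 20511 on the myoepithelial arrays against 71.4 and 127 on the luminal arrays. Its 4 duct signals lay between 41.7 and 62.4, and its interaction was 7.29 ± 0.50 (limma adjusted p = 0.000169). The 95% interval of the Cnn1 duct difference reached from -0.85 to 0.74, so a duct difference of 2-fold or more lay outside it.

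Tagln, which encodes transgelin of the smooth muscle cytoskeleton, had 17757 and 29091 on the myoepithelial arrays against 145 and 269 on the luminal arrays. On the duct basal arrays Tagln had 321 and 111, and on the duct suprabasal arrays 212 and 596, again with overlap. Pcp4, a small regulator of calmodulin, had 13141 and 18757 on the myoepithelial arrays against 116 and 121 on the luminal arrays. The interactions were 7.63 ± 0.81 for Tagln and 7.61 ± 0.74 for Pcp4 (limma adjusted p = 0.001 and 0.000658). Acta2, smooth muscle actin itself, had an interaction of 4.54 ± 0.53 (adjusted p = 0.00132). Myosin light chain kinase, Mylk, which switches on smooth muscle contraction, had an interaction of 6.71 ± 0.56 (adjusted p = 0.000325).

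The other 2 contractile genes also had a duct layer difference. Cald1, the actin regulator caldesmon, was an opposite gene: it had 13061 and 18137 on the myoepithelial arrays against 5257 and 4177 on the luminal arrays, and 1055 and 702 on the duct basal arrays against 5038 and 2674 on the duct suprabasal arrays. Tpm2, a tropomyosin, was higher in the outer layer of both, by 5.64 ± 0.35 in gland and 1.83 ± 0.35 in duct. All 13 contractile genes passed without each of the 10 arrays in turn.

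Gland-only genes that were higher in luminal cells numbered 291 (3.13% of genes tested). In 270 of them myoepithelial cells had the lowest level of the 4 populations, and in 218 luminal cells had the highest. Over all 9304 genes these counts were 2258 and 2592. Tagln2, a transgelin relative that is not confined to muscle, had 357 and 240 on the myoepithelial arrays against 2158 and 1905 on the luminal arrays. In the duct Tagln2 had 7632 and 9017 on the basal arrays against 3107 and 6336 on the suprabasal arrays. The gland difference was -2.74 ± 0.32, the duct difference 0.90 ± 0.32 did not pass, and the interaction was -3.64 ± 0.46 (limma adjusted p = 0.00163). The signs of Tagln and Tagln2 in gland were thus opposite, 6.76 and -2.74.

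Fads2, a desaturase of fatty acid synthesis, had 245 and 52.8 on the myoepithelial arrays against 1775 and 1208 on the luminal arrays. Its duct signals were 345 and 840 on the basal arrays against 355 and 316 on the suprabasal arrays, and the interaction was -4.18 ± 0.85 (limma adjusted p = 0.0127). Prxl2a, a peroxiredoxin-like protein, had 1069.5 and 169.9 on the myoepithelial arrays against 5222 and 4240.2 on the luminal arrays, with an interaction of -4.24 ± 1.04 (adjusted p = 0.0256). Cdhr1, a cadherin-related protein known from photoreceptors, had 132 and 9.4 on the myoepithelial arrays against 849.5 and 738 on the luminal arrays, with an interaction of -3.92 ± 1.09 (adjusted p = 0.0392). In Fads2, Prxl2a and Cdhr1 myoepithelial array 1 lay several-fold above array 2. The Fads2 call ended without luminal array 1 or duct basal array 2 (adjusted p = 0.0513 and 0.0556), that of Prxl2a without either luminal or either duct basal array (0.0701 to 0.0803), and that of Cdhr1 without any array except myoepithelial array 1 and duct suprabasal array 1 (0.0676 to 0.108). Without myoepithelial array 2 the Cdhr1 interaction was -2.55.

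**Figure D2:**
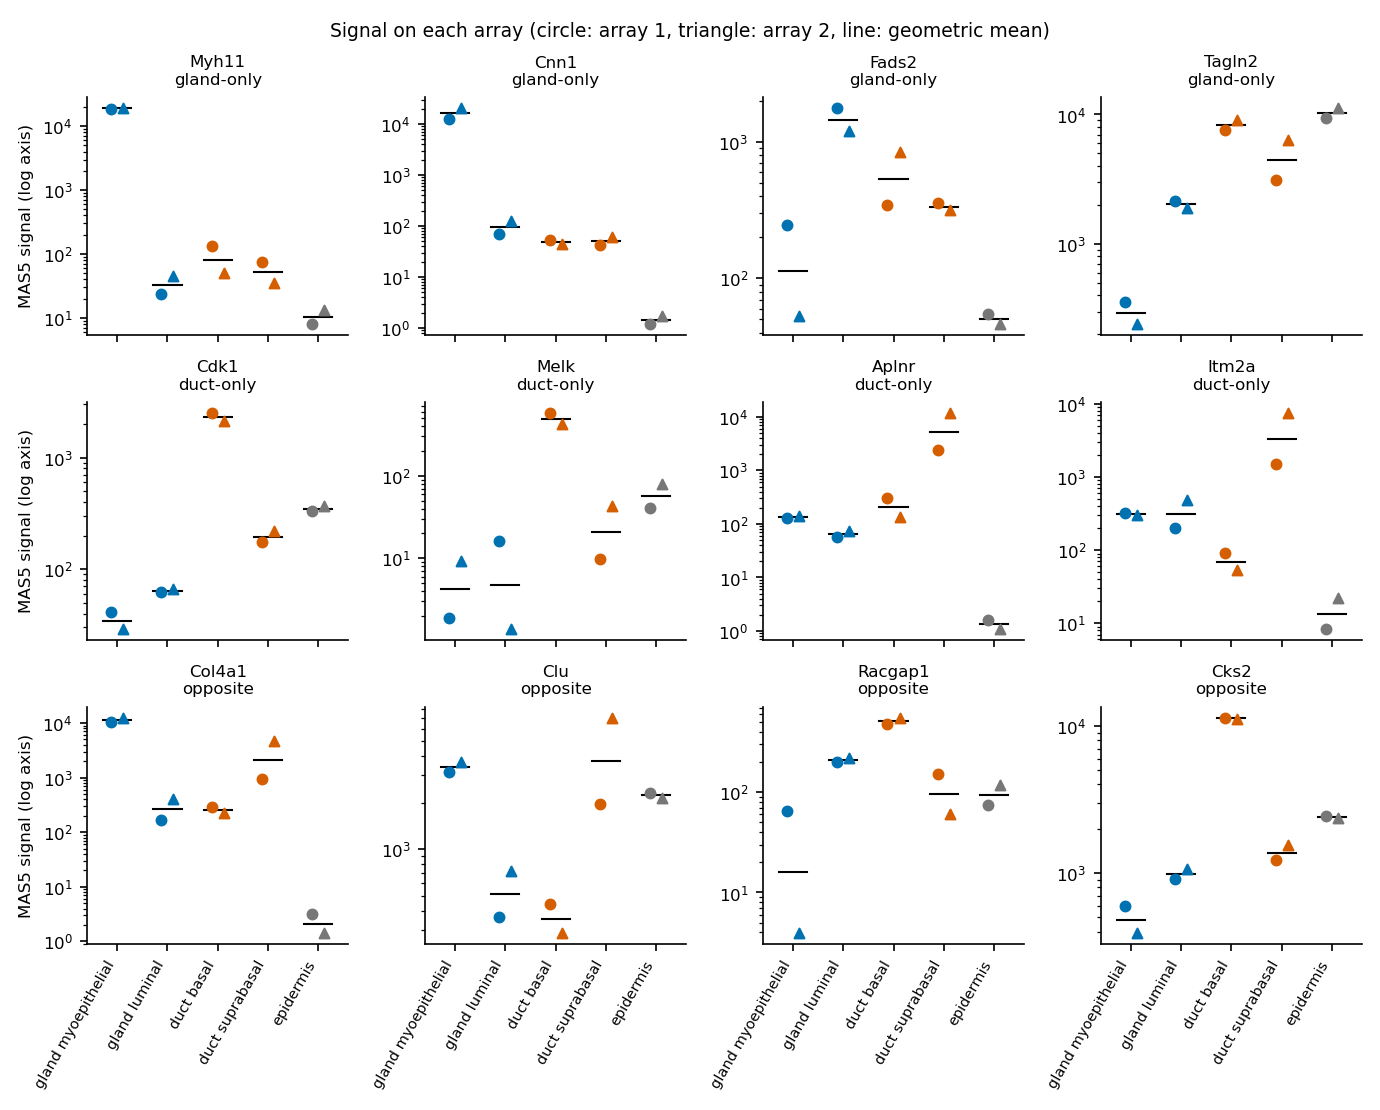
MAS5 signal (log axis) of 12 genes on every array, by population, with circles for array 1, triangles for array 2 and a line at the geometric mean; blue marks gland, orange duct and grey epidermis. Myh11 and Cnn1 stand apart on the myoepithelial arrays alone, Cdk1 and Melk on the duct basal arrays, and Aplnr, Itm2a, Col4a1 and Clu are higher on duct suprabasal array 2 than on array 1.

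Genes of secretion and of simple epithelia were mostly higher in the inner layer in gland, and how many differed between gland and duct depended on single arrays. Of 19 tested members of the simple epithelial list (keratins and other genes of single-layered epithelia), 17 were higher in luminal than in myoepithelial cells and 7 were higher in duct suprabasal than in duct basal cells, against 14.5% and 8.24% of all genes. The interaction passed for 2 of the 19, both gland-only with a negative sign, a share near the 5.87% of all genes. The 2 genes are St14, which encodes the membrane protease matriptase (interaction -3.17 ± 0.89, limma adjusted p = 0.0419), and Spint1, which encodes its inhibitor (-1.64 ± 0.32, adjusted p = 0.0104). The St14 call ended without either luminal, duct basal or epidermis array, or without duct suprabasal array 2 (adjusted p = 0.0724 to 0.117), and its interaction was -1.91 without myoepithelial array 2. Without myoepithelial array 1, on which the summed signal of these genes was higher than on array 2, 9 of the 19 passed with a negative sign, and without each array that ended the St14 call 1 did. Leaving out duct suprabasal array 1 gave 3, and leaving out myoepithelial array 1 together with duct suprabasal array 1 or 2 gave 13 and 10, all negative.

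Among genes of ion transport, the interaction passed for 0 of 17 secretory coil genes and 0 of 10 ductal absorption genes with limma, against 15.8% of all genes, and 1 of each list had an unadjusted p under 0.05. These counts also depended on single arrays: without myoepithelial array 1 they were 3 and 4, and without duct suprabasal array 1 they were 1 and 2, all negative. Without both of these arrays 11 of 17 and 7 of 10 passed, and without myoepithelial array 1 and duct suprabasal array 2, 5 and 4, again all negative. In gland 14 and 10 of them were higher in luminal than in myoepithelial cells (14.5% of all genes), and in duct 4 and 2 were higher in suprabasal than in basal cells (8.24% of all genes). Scnn1b, a subunit of the epithelial sodium channel, had 108 and 81.3 on the myoepithelial arrays against 419 and 479 on the luminal arrays, and 68.7 and 74.7 on the duct basal arrays against 538.5 and 391 on the duct suprabasal arrays. Its interaction was 0.37, with a 95% interval from -0.62 to 1.36. Best2, a chloride channel of the secretory cell, had differences of -4.79 ± 0.92 in gland and -5.18 ± 0.92 in duct, and Foxa1, a transcription factor of secretory luminal cells, had -4.05 ± 0.96 and -4.49 ± 0.96. The Best2 interval of the interaction was wide, from -2.56 to 3.33, so the data bound it poorly.

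Duct-only genes that were higher in duct basal cells numbered 170 (1.83% of genes tested), and in 167 of them duct basal cells had the highest level of the 4 populations. Over all genes this held for 2598 of 9304, and the class was sorted by these same means. Genes of cell division led the class. Of 26 tested mitosis genes, 18 passed the interaction with a negative sign and 0 with a positive sign, against 5.87% and 9.9% of all genes. Of the 18, 16 were duct-only and 2 opposite, and the list median was -2.43. In duct 24 of the 26 were higher in basal than in suprabasal cells (7.93% of all genes). In gland 1 was higher in myoepithelial and 2 in luminal cells, against 16.5% and 14.5% of all genes. The summed mitosis signal over 26 genes was 1567 and 1425 on the myoepithelial arrays against 1100 and 1169 on the luminal arrays, and 32724 and 31534 on the duct basal arrays against 3313 and 3801 on the duct suprabasal arrays. In bulk RNA, fewer dividing cells and less RNA per cell cannot be told apart.

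Cdk1, the kinase that drives entry into mitosis, had 41 and 29.2 on the myoepithelial arrays against 62.3 and 66 on the luminal arrays. On the duct basal arrays it had 2515 and 2143, against 173 and 220 on the duct suprabasal arrays. Every duct basal array thus lay far above the other 6, and in the epidermis Cdk1 had 332 and 367. The gland difference of -0.70 ± 0.25 did not pass (adjusted p = 0.0575), the duct difference was 3.49 ± 0.25, and the interaction was -4.20 ± 0.35 (limma adjusted p = 0.000325).

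Melk, a kinase found in dividing cells, had 1.9 and 9.3 on the myoepithelial arrays against 16 and 1.4 on the luminal arrays, and 579 and 419 on the duct basal arrays against 9.9 and 43.2 on the duct suprabasal arrays. Its interaction was -4.03 ± 0.82 (limma adjusted p = 0.013), and with a pseudocount of 1 it did not pass (0.0766). Cdca3, which promotes mitotic entry, had 1632 and 2671 on the duct basal arrays against 135 and 256 on the duct suprabasal arrays, with an interaction of -4.00 ± 0.61 (adjusted p = 0.00396). Another of the 3 Cdca3 probe sets had the opposite sign. The fourth gene by size is not one of division: Aox3, an aldehyde oxidase, had 1720.1 and 2925 on the duct basal arrays against 143.5 and 391 on the duct suprabasal arrays, and between 2.1 and 38.6 on the 4 gland arrays. Its interaction was -3.94 ± 0.84 (adjusted p = 0.0155), and the call ended without luminal array 2 or duct basal array 2 (0.0612 and 0.0715).

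Rbp4, the carrier protein of retinol, was also duct-only and higher in basal cells, with 5365 and 7334 on the duct basal arrays against 256 and 1116 on the duct suprabasal arrays. On the gland arrays it lay between 31 and 67.8. The Rbp4 interaction was -3.49 ± 0.82 (limma adjusted p = 0.0219), a call that ended without either myoepithelial array, luminal array 2 or duct basal array 2 (0.0571 to 0.086).

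DNA replication genes leaned the same way by less. Of 24 tested, 14 passed with a negative sign and 0 with a positive sign, against 5.87% and 9.9% of all genes, with a list median of -1.46. All 24 were higher in duct basal than in duct suprabasal cells (7.93% of all genes). In gland 7 were also higher in the myoepithelial layer (16.5% of all genes). Rfc4, a subunit of the clamp loader, had an interaction of -2.23 ± 0.32 (limma adjusted p = 0.00284), and Lig1, the ligase that joins Okazaki fragments, had -2.06 ± 0.36 (adjusted p = 0.00657). Pcna, the sliding clamp, had 2801 and 2988 on the myoepithelial arrays against 2875 and 3113 on the luminal arrays, and 10761.5 and 11031 on the duct basal arrays against 3611 and 4471 on the duct suprabasal arrays. Without duct basal array 2 the counts fell to 10 mitosis and 9 replication genes, still all negative. The replication count was 8 without myoepithelial array 2 and 9 without luminal array 2 or duct basal array 1.

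The promoters of these genes were read because many genes of the late cell cycle are known to carry 2 short elements near their start, the cell cycle genes homology region (CHR, TTTGAA) and the CCAAT box. Both were searched on both strands, from 250 bases before to 50 after each gene's start, in RefSeq promoters of build GRCm38.p6, and neither contains the other. Of 165 promoters of duct-only genes that were higher in basal cells, 28.5% held the CHR letters, against 11.8% of 9699 promoters of genes tested. The CCAAT box stood in 53.3% of the 165, against 36.9% of promoters of genes tested. It was not particular to this class, with 56.8% of 37 promoters of unsorted genes with a negative interaction and 63.6% of 11 contractile promoters. In the other classes it stood in 26.2% to 42.9% of promoters. Of 23 mitosis promoters 73.9% held the CHR and 78.3% the CCAAT letters, and of 24 replication promoters 12.5% and 54.2%. Both lists share genes with the duct-only class, so their shares are not independent of it. A match describes the letters only and shows no binding. The 250 bases upstream of 3 genes are given, Cdk1 with both elements, Cks2 with the CCAAT box alone and Cnn1 from the gland-only class, with every match in capitals (ATTGG is the CCAAT box on the other strand).
Cdk1, chr10:69352913-69353162, minus strand: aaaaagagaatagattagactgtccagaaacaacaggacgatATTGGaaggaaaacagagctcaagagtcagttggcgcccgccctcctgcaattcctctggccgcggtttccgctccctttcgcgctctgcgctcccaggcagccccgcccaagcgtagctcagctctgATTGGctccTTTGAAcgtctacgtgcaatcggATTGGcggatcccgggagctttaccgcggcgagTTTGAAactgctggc
Cks2, chr13:51644982-51645231, plus strand: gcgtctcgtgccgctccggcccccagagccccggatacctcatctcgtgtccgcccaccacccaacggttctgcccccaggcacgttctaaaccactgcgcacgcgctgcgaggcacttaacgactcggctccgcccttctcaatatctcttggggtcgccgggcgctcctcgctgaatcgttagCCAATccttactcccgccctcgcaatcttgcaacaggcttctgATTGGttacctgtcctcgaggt
Cnn1, chr9:22099003-22099252, plus strand: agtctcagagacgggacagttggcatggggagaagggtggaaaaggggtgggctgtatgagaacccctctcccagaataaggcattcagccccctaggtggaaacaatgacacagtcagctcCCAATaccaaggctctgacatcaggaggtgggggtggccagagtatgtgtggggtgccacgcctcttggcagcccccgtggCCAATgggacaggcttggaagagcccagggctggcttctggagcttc

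In the Cdk1 sequence 2 CHR matches lie 71 and 15 bases before the start, among 3 matches to the CCAAT box. Cks2, an opposite gene, and Cnn1 each hold 2 CCAAT matches there and no CHR match. In their own 250 bases Racgap1, Cdca3 and Aox3 hold the CCAAT box and no CHR match, and Melk and Nuf2 hold neither. The CArG box, bound by serum response factor in smooth muscle genes, was matched in 3.17% of 473 promoters of gland-only genes that were higher in myoepithelial cells, against 1.39% of promoters of genes tested, and in 1 of 11 contractile promoters.

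Duct-only genes that were higher in duct suprabasal cells numbered 142 (1.53% of genes tested), and genes known from blood vessels stood among their largest. Aplnr, the apelin receptor, had 131 and 142 on the myoepithelial arrays against 57.3 and 75 on the luminal arrays, and 310.5 and 133 on the duct basal arrays against 2376 and 11894.5 on the duct suprabasal arrays. Its interaction was 5.56 ± 0.92 (limma adjusted p = 0.00543). Cd93, a receptor of endothelial and myeloid cells, had 124 and 66.9 on the duct basal arrays against 935 and 4099.6 on the duct suprabasal arrays, with an interaction of 4.93 ± 0.86 (adjusted p = 0.00687); the second Cd93 probe set had the opposite sign, and the mean of both did not pass (0.071). Itm2a, a membrane protein, had 91.2 and 53.6 on the duct basal arrays against 1493 and 7576 on the duct suprabasal arrays, with an interaction of 5.37 ± 0.97 (adjusted p = 0.00782). Efhd1, a calcium-binding protein of mitochondria, had 24.4 and 23.8 against 237 and 1269 on these arrays, with an interaction of 4.95 ± 0.90 (adjusted p = 0.00811). In all 4 genes duct suprabasal array 2 lay at least 4-fold above array 1, and both arrays lay above the duct basal arrays.

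Markers of other cell types moved with this class. Of 9 tested endothelial markers 5 passed the interaction with a positive sign, all duct-only, against 9.9% of all genes, with a list median of 3.51. Pecam1, the adhesion molecule of endothelium, had 12.7 and 3.1 on the myoepithelial arrays against 12.5 and 4 on the luminal arrays, and 39.6 and 5.3 on the duct basal arrays against 250.4 and 1063 on the duct suprabasal arrays. The summed endothelial signal over 10 markers was 426 and 307 in myoepithelial cells, 322 and 746 in luminal cells, 1220 and 605 in duct basal cells, and 6675 and 29626 in duct suprabasal cells. Without duct suprabasal array 2, 2 of the 9 passed, and without array 1 all 9; the count was 1 without either myoepithelial array, luminal array 1 or duct basal array 2, 3 without luminal array 2 or duct basal array 1, and 2 without either epidermis array. Of the 142 duct-only suprabasal genes, 58 (40.8%) were over 2-fold higher on duct suprabasal array 2 than on array 1, against 11.0% of all genes. Without array 2, 112 of the 142 passed the interaction and 112 the duct difference. The part of endothelial or fibroblast RNA in these differences was not tested.

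**Figure D3:**
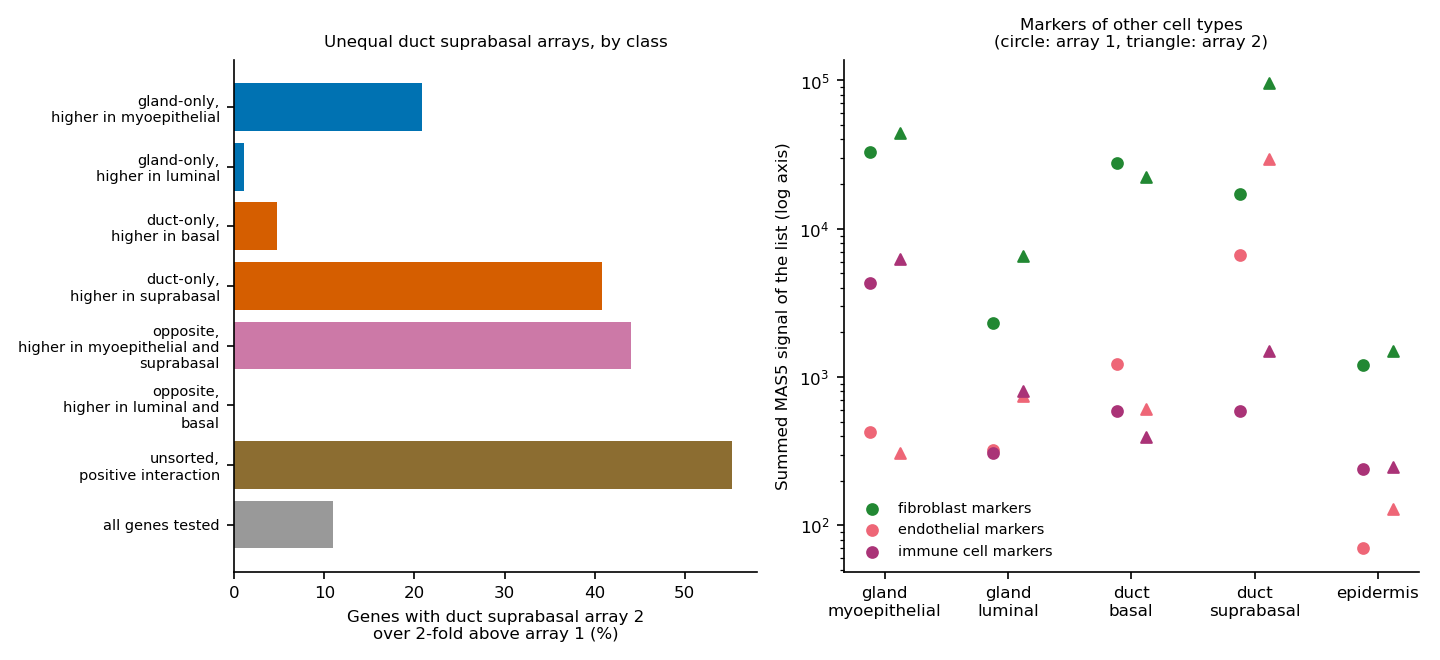
Left, the share of genes in each class whose signal on duct suprabasal array 2 was over 2-fold above array 1, which was 40.8% and 44.0% in the suprabasal classes and 11.0% over all genes. Right, summed signal (log axis) of fibroblast, endothelial and immune cell markers on each array, with the highest fibroblast and endothelial sums on duct suprabasal array 2.

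Opposite genes numbered 130 (1.4% of genes tested), and 100 of them (1.07%) were higher in the myoepithelial layer of gland but lower in duct basal than in duct suprabasal cells. In 73 of the 100 myoepithelial cells had the highest level and in 27 duct suprabasal cells, against 2591 and 1523 of all 9304 genes. Fmod, the collagen-binding proteoglycan fibromodulin, had 10094 and 17068 on the myoepithelial arrays against 125 and 747 on the luminal arrays, and 49.1 and 97.3 on the duct basal arrays against 734 and 9166 on the duct suprabasal arrays. Its interaction was 10.35 ± 1.52 (limma adjusted p = 0.00328). Without duct suprabasal array 2 the duct difference of Fmod was -3.19, against -5.00 with it, and still passed (adjusted p = 0.0256).

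Scara5, a scavenger receptor that takes up ferritin, had 1303 and 1440 on the myoepithelial arrays against 28.5 and 33.4 on the luminal arrays. In duct it had 9.4 and 60.9 on the basal arrays against 608.5 and 3755.5 on the suprabasal arrays, with an interaction of 10.28 ± 1.11 (limma adjusted p = 0.00103). In Scara5, as in Fmod, the layers did not overlap in either structure.

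Col4a1 and Col4a2 encode the 2 chains of the collagen IV that is found in nearly all basement membranes, and they lie head to head on chromosome 8. In RefSeq (GRCm38.p6) their transcripts start 21 bases apart on opposite strands, at 11312826 on the minus strand for Col4a1 and 11312805 on the plus strand for Col4a2. Col4a1 had 10554 and 12601 on the myoepithelial arrays against 166 and 414.5 on the luminal arrays, and 290.5 and 227.5 on the duct basal arrays against 938 and 4781 on the duct suprabasal arrays. In the epidermis it had 3.2 and 1.4. Its gland difference was 5.39 ± 0.65, its duct difference -2.99 ± 0.65 and its interaction 8.38 ± 0.92 (limma adjusted p = 0.0011). Col4a2 followed with 5552 and 6075 on the myoepithelial arrays against 94.7 and 186 on the luminal arrays, and 142 and 123 on the duct basal arrays against 401 and 2455 on the duct suprabasal arrays. Its interaction was 8.13 ± 0.95 (adjusted p = 0.00132). The duct difference was -1.82 for Col4a1 and -1.52 for Col4a2 without duct suprabasal array 2, against -2.99 and -2.81 with it, and both still passed (adjusted p = 0.0222 and 0.0233).

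The wider basement membrane list had 17 tested genes, with a median of 2.66. Of these, 7 passed with a positive sign and 0 with a negative sign, against 9.9% and 5.87% of all genes. Lamb1 and Lamc1, a beta and a gamma chain of laminin, were gland-only with interactions of 4.62 ± 0.80 and 4.05 ± 0.75 (limma adjusted p = 0.00652 and 0.00884). On duct suprabasal array 2 Lamb1 had 2174, against 460 on array 1, which spans both duct basal signals. Sparc, a collagen-binding matrix protein, was gland-only with 4.58 ± 0.97 (adjusted p = 0.0146), a call that ended without myoepithelial array 2, luminal array 1 or duct basal array 2 (0.0542 to 0.0567). Fn1, fibronectin, was duct-only and higher in suprabasal cells, with 166 and 159 on the duct basal arrays against 681 and 5148 on the duct suprabasal arrays. The Fn1 call (adjusted p = 0.0369) ended without any array except the 2 duct suprabasal ones (0.0515 to 0.115). The list's count was 4 without luminal array 1 or duct basal array 2, and 12 without duct suprabasal array 1.

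Clu, which encodes the secreted chaperone clusterin, had 3154 and 3677 on the myoepithelial arrays against 361 and 726 on the luminal arrays. On the duct basal arrays Clu had 439 and 284.5, against 1950 and 7090.5 on the duct suprabasal arrays, and in epidermis 2309 and 2151. Unlike Fmod, Scara5 and both collagen genes, which were lower in epidermis than in each sweat gland population, the mean of Clu in epidermis lay between those of the higher and the lower layers. Its gland difference was 2.70 ± 0.53, its duct difference -3.35 ± 0.53 and its interaction 6.06 ± 0.76 (limma adjusted p = 0.00163). Without duct suprabasal array 2 the Clu interaction was 5.13 (adjusted p = 0.000493).

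Of the 100 genes of this class, 44 (44%) were over 2-fold higher on duct suprabasal array 2 than on array 1. Without array 2 all 100 passed the interaction and 66 passed the duct difference. Fibroblast markers, summed over 10 genes, gave 32770 and 44379 in myoepithelial cells, 2311 and 6591 in luminal cells, 27674 and 22170 in duct basal cells, and 17265 and 95914 in duct suprabasal cells. These sums rest on few genes, among them Dcn with 11955 and 15303 on the myoepithelial arrays. The median signal of the markers was 40.3 and 44.4 in myoepithelial and 143 and 236 in luminal cells. In duct it was 397 and 357 in basal and 471 and 3828 in suprabasal cells. Of the 10, only Postn, which encodes the matrix protein periostin, passed the interaction (5.05 ± 0.77, limma adjusted p = 0.00391). That share is near the 9.9% of all genes with a positive interaction, and the count moved when single arrays were left out. However, 6 of the 10 had an unadjusted limma p under 0.05, against 2920 of 9304 genes. The list median was 2.68, against 0.05 over all genes. It was 3.97 without duct suprabasal array 1 and 1.32 without array 2. Lum, the matrix proteoglycan lumican of fibroblasts, had 35.2 and 49.5 on the myoepithelial arrays, 189 and 468 on the luminal arrays, 59.2 and 115 on the duct basal arrays, and 1071 and 8613 on the duct suprabasal arrays. Their part in the opposite genes was not tested.

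The mirror group, higher in luminal than in myoepithelial cells and higher in duct basal than in duct suprabasal cells, held 30 genes (0.322%). In 28 of them myoepithelial cells had the lowest level, and in 24 duct basal cells had the highest, against 2258 and 2598 of all 9304 genes. Cks2, a small partner of cyclin-dependent kinases, had 593 and 388.5 on the myoepithelial arrays against 910.2 and 1058 on the luminal arrays, and 11389 and 11091 on the duct basal arrays against 1219 and 1548 on the duct suprabasal arrays. Its interaction was -4.03 ± 0.32 (limma adjusted p = 0.000297), made of -1.01 ± 0.22 in gland and 3.02 ± 0.22 in duct. Racgap1, which cytokinesis needs, had 65.1 and 3.9 on the myoepithelial arrays against 202 and 221 on the luminal arrays, and 484.5 and 557 on the duct basal arrays against 154 and 60.9 on the duct suprabasal arrays. The Racgap1 interaction was -4.95 ± 0.94 (adjusted p = 0.00971), and its duct difference did not pass without duct suprabasal array 2 (adjusted p = 0.135).

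Tmem54, a membrane protein, had 25.3 and 7.7 on the myoepithelial arrays against 122 and 101 on the luminal arrays, and 465 and 549 on the duct basal arrays against 218 and 229 on the duct suprabasal arrays. Its interaction was -3.32 ± 0.45 (limma adjusted p = 0.00246), and its duct difference did not pass without duct suprabasal array 2 (0.0639). Otud7a, a deubiquitinase, had an interaction of -3.47 ± 0.70 (adjusted p = 0.0123), a call that ended without luminal array 2 or duct basal array 2 (0.0505 and 0.0555). Itgb4, the integrin beta chain of hemidesmosomes, also belonged to this group, with 304.5 and 221 on the myoepithelial arrays against 677 and 633 on the luminal arrays, and 1184 and 1560.5 on the duct basal arrays against 550.5 and 470.1 on the duct suprabasal arrays. The interaction of Itgb4 was -2.69 ± 0.33 (adjusted p = 0.00161). Without duct suprabasal array 2, 20 of the 30 genes passed the duct difference, and all 30 the interaction.

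Same-direction genes numbered 68 (0.731%), of which 57 were higher in both outer layers and 11 in both inner layers. Basal keratinocyte genes were frequent here: of 17 tested, 9 passed the interaction with a positive sign and 1, Itgb4, with a negative sign. Of all genes 9.9% and 5.87% did, and 6 of the 9 were same-direction genes. Krt14, Cdh3, Krt5 and Col17a1 passed narrowly (limma adjusted p = 0.0453, 0.0462, 0.0495 and 0.0496). With the 8 gland and duct arrays alone Col17a1 and Cdh3 did not pass (limma adjusted p = 0.0738 and 0.0809). When single arrays were left out in turn, the calls of Krt14, Cdh3, Krt5 and Col17a1 each ended in most cases. The Krt5 interaction was 2.45, and 1.64 without duct suprabasal array 2. Trp63, the transcription factor of basal epithelial cells, had 3807 and 4738 on the myoepithelial arrays against 38.1 and 55 on the luminal arrays. On the duct basal arrays it had 3631 and 3004, against 505 and 474 on the duct suprabasal arrays. The outer layers thus all lay between 3004 and 4738, and the inner layers did not overlap. The gland difference was 6.2 ± 0.22, the duct difference 2.73 ± 0.22 and the interaction 3.47 ± 0.30 (limma adjusted p = 0.000386).

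Dst, which anchors keratin to hemidesmosomes, had differences of 6.33 ± 0.33 in gland and 4.03 ± 0.33 in duct, with an interaction of 2.30 ± 0.47 (limma adjusted p = 0.0127), a call that ended without myoepithelial array 2 or duct basal array 2 (0.0539 and 0.0571). Lama3, a laminin chain of the anchoring complex, had 7609 and 8441 on the myoepithelial arrays against 12.6 and 65.3 on the luminal arrays, and 1374 and 1455 on the duct basal arrays against 279 and 651.5 on the duct suprabasal arrays. Its interaction was 5.82 ± 0.72 (adjusted p = 0.00156), and it stayed unsorted because its duct difference of 1.70 ± 0.51 just missed the threshold (adjusted p = 0.0508). The count of this list, both signs together, was 6 without myoepithelial array 1, duct basal array 1 or either epidermis array, and 5 without myoepithelial array 2 or duct basal array 2.

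Outside that list, the largest same-direction genes were of muscle and actin. Casq2, the calcium store protein of cardiac muscle, had 4479 and 4094 on the myoepithelial arrays against 17.2 and 38 on the luminal arrays, and 126 and 117.5 on the duct basal arrays against 49.1 and 39.5 on the duct suprabasal arrays. Its interaction was 5.56 ± 0.44 (limma adjusted p = 0.000297), and its duct difference did not pass without duct suprabasal array 2 (adjusted p = 0.057). Flna, an actin cross-linker, had an interaction of 5.43 ± 0.46 (adjusted p = 0.000352), and Fhod3, a formin that assembles actin, 5.23 ± 0.43 (adjusted p = 0.000325). Krt17, a keratin of stressed and appendage epithelium, differed by 5.75 ± 0.37 in gland and 2.60 ± 0.37 in duct, with an interaction of 3.15 ± 0.53 (adjusted p = 0.00563).

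A few genes of one sign had the larger difference in duct. Rrm2, a subunit of the enzyme that makes deoxyribonucleotides, had 90.2 and 105 on the myoepithelial arrays against 29.6 and 35.9 on the luminal arrays, and 2542 and 1881 on the duct basal arrays against 184 and 253 on the duct suprabasal arrays. Its interaction was -1.98 ± 0.38 (limma adjusted p = 0.0106). Psat1, an enzyme of serine synthesis, had differences of 1.19 ± 0.22 in gland and 3.03 ± 0.22 in duct (interaction -1.83 ± 0.31, adjusted p = 0.00587). Incenp, of the chromosomal passenger complex, had an interaction of -1.58 ± 0.33 (adjusted p = 0.0146), a call that ended without myoepithelial array 2 or luminal array 2 (0.0538 and 0.0588). Fam43a was higher in both inner layers, with differences of -1.20 ± 0.24 in gland and -2.63 ± 0.24 in duct, and its call (interaction 1.43 ± 0.33, adjusted p = 0.0216) ended without myoepithelial array 2, either luminal array or duct basal array 2 (0.0639 to 0.0749).

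**Figure D4:**
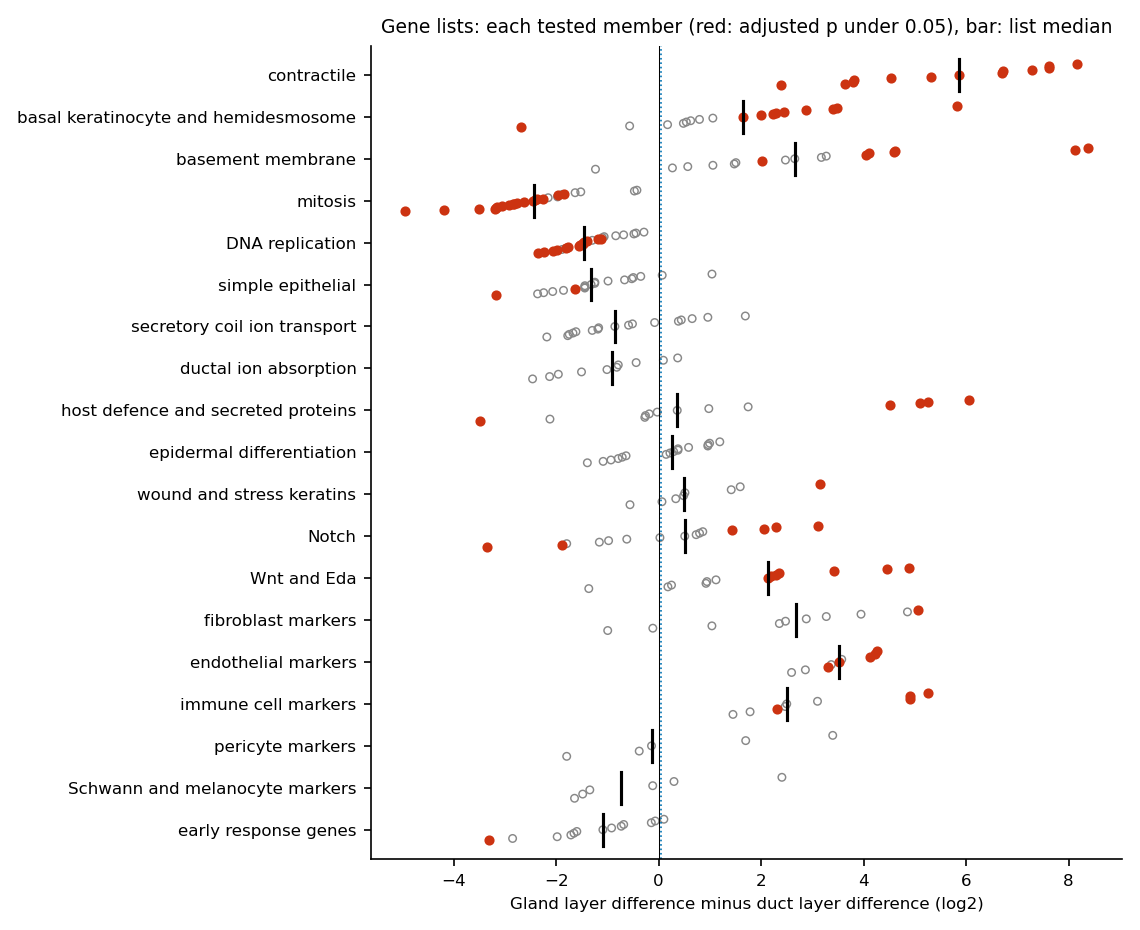
Interaction (log2) of every tested member of 19 gene lists, filled red where the limma adjusted p was under 0.05, with a bar at the list median and a dotted line at the median of all genes. Contractile genes lie between 2.38 and 8.16, mitosis genes are all below 0, and the ion transport and epidermal differentiation lists hold no red point.

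Of 13 tested Wnt and Eda genes 7 passed with a positive sign and 0 with a negative sign, against 9.9% and 5.87% of all genes, with a median of 2.13. Sfrp1, a secreted Wnt antagonist, had 11930 and 14910.5 on the myoepithelial arrays against 60.1 and 145 on the luminal arrays, and 1492 and 1241 on the duct basal arrays against 198 and 489 on the duct suprabasal arrays. Its interaction was 4.89 ± 0.65 (limma adjusted p = 0.00224). Lgr5, a receptor of R-spondins, differed by 4.89 ± 0.33 in gland and 2.54 ± 0.33 in duct, with an interaction of 2.35 ± 0.47 (adjusted p = 0.0121). Dkk3, a Dickkopf relative, and Nkd1, a target and inhibitor of Wnt signalling, were gland-only with 4.46 ± 0.92 and 3.41 ± 0.68 (adjusted p = 0.0133 and 0.0122). Both calls ended without myoepithelial array 2 (0.0571 and 0.0505) and without duct basal array 2 (0.0556 and 0.0507), and the list's count was then 4 and 3.

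Of 15 tested Notch genes 4 passed with a positive and 2 with a negative sign, against 9.9% and 5.87% of all genes, so that the negative count is near the background. The ligands Dll1 and Jag1 were positive: Dll1 had 828 and 508 on the myoepithelial arrays against 33 and 41.8 on the luminal arrays, and 305 and 283 on the duct basal arrays against 131 and 255.5 on the duct suprabasal arrays. The Dll1 interaction was 3.10 ± 0.51 (limma adjusted p = 0.00527) and that of Jag1 2.29 ± 0.38 (adjusted p = 0.00553); the second Jag1 probe set had the opposite sign, and the mean of both did not pass (0.183). The receptor Notch1 and the target Hes1 were negative, with -1.89 ± 0.38 and -3.35 ± 0.77 (adjusted p = 0.0122 and 0.021). Calls ended for Notch1 without luminal array 1 or duct basal array 2 (0.0501 and 0.0536) and for Hes1 without myoepithelial array 2 or either luminal array (0.0521 to 0.075). The positive count was 2 without any single array other than duct basal array 1 (3) and duct suprabasal array 1 (5), and the negative count was 0 without luminal array 1, 1 without myoepithelial array 2, luminal array 2 or duct basal array 2, and 2 or 3 without the others. Duct basal array 2 had 8012 for Hes1 against 1869 on array 1.

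Of 13 host defence and secreted protein genes, 4 passed with a positive sign, among them Clu, and 1, Rbp4, with a negative sign, against 9.9% and 5.87% of all genes. Without myoepithelial array 2 or duct basal array 2, 3 passed, all positive. Lyz1, a lysozyme, had 5881 and 7167 on the myoepithelial arrays against 225 and 857 on the luminal arrays, and 341 and 272 on the duct basal arrays against 395 and 1394 on the duct suprabasal arrays. Its interaction was 5.10 ± 0.90 (limma adjusted p = 0.00725); its probes and those of Lyz2 may share transcripts, since the genes are near-identical. Tyrobp and Fcer1g, signalling adaptors of myeloid cells, had interactions of 4.90 ± 0.92 and 4.91 ± 0.83 (adjusted p = 0.0093 and 0.00599). Immune markers summed over 9 genes were 4281 and 6210.4 in myoepithelial cells, 307 and 809 in luminal cells, 590 and 397 in duct basal cells, and 591 and 1490.2 in duct suprabasal cells. Of these 9, 4 passed with a positive sign, against 9.9% of all genes, and the count moved when single arrays were left out. All 9 had an unadjusted limma p under 0.05, against 2920 of 9304 genes. The list median was 2.50, with 3.72 without duct suprabasal array 1 and 2.36 without array 2. The part of immune cell RNA in the lysozyme values was not tested.

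Epidermal differentiation genes showed no interaction past the threshold with limma (0 of 16, against 15.8% of all genes, where 1 had an unadjusted p under 0.05). Without luminal array 1, 1 of them passed with a negative sign, and without duct basal array 2, 1 with a positive sign. Early response genes, which tissue dissociation can raise, had 1 of 13, Atf3, with a negative sign, a share near the 5.87% of all genes (-3.30 ± 0.87, limma adjusted p = 0.0321). Its call ended without myoepithelial array 2, luminal array 1, duct basal array 2, duct suprabasal array 2 or either epidermis array (0.0584 to 0.118). The count was 2 without myoepithelial array 1, luminal array 2 or duct suprabasal array 1, and 3 without duct basal array 1. Pericyte markers (0 of 5) and Schwann and melanocyte markers (0 of 6) had no interaction past the threshold with limma, and 2 of each had an unadjusted p under 0.05. For pericyte markers the count was 3 without duct suprabasal array 1 and 1 without myoepithelial array 1, and for Schwann and melanocyte markers 1 without either duct suprabasal array. Of 8 wound and stress keratins only Krt17 passed, with a positive sign, a share near the 9.9% of all genes.

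The epidermis arrays were not part of the layer comparison, and the level there was set against the mean of the 4 sweat gland populations. That mean holds the values by which the classes were sorted, so a difference between classes need not lie in the epidermis. The 100 opposite genes that were higher in myoepithelial and duct suprabasal cells had a median of -2.35 for epidermis minus the mean of the 4 sweat gland populations (log2), and 75 of them were lower in epidermis than in each of the 4. Over all genes the median was -0.25, and 3622 of 9304 were below all 4. Duct-only genes higher in suprabasal cells had a median of -1.74 with 96 of 142 below all 4, and gland-only genes higher in myoepithelial cells -1.03 with 229 of 446. The median was 0.52 for gland-only genes higher in luminal cells, 0.49 for duct-only genes higher in basal cells and 0.49 for the 30 opposite genes higher in luminal and duct basal cells. Among same-direction genes it was -0.54 for the 57 higher in the outer layers and -1.002 for the 11 higher in the inner layers, and among unsorted genes -1.73 for a positive and 0.29 for a negative interaction. The sign of the interaction and the sign of this median thus did not go together in every class, since the 11 genes had a median interaction of -1.25. These medians are descriptions over genes, with no test.

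**Figure D5:**
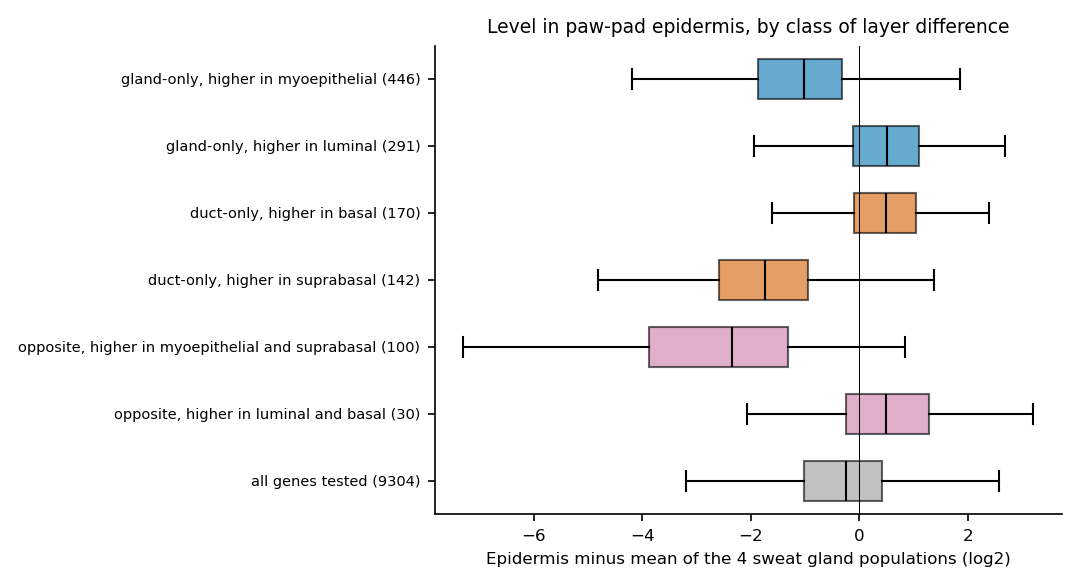
Level in epidermis minus the mean of the 4 sweat gland populations (log2) for the genes of the gland-only, duct-only and opposite classes and for all genes tested; boxes span the quartiles with the median as a line, and whiskers reach the last gene within 1.5 box lengths. Of the 6 classes drawn, those with a positive interaction have medians of -1.03, -1.74 and -2.35, and those with a negative one 0.52, 0.49 and 0.49. Same-direction and unsorted genes are not drawn. The subtracted mean holds the values by which the classes were sorted.

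The sorting rule has edges. The gland-only gene with the largest duct difference inside the bound was Adgre1 at -0.997, and the unsorted gene nearest outside was Pcdhb20 at -1.002. The last gene inside the interaction threshold was Rida (adjusted p = 0.04996) and the first outside Tamm41 (adjusted p = 0.0502). A missing duct difference was often only loosely bounded: the 95% interval of the duct difference stayed within 2-fold in 348 of the 737 gland-only genes, and that of the gland difference in 131 of the 312 duct-only genes.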

How the data were processed

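Total RNA of sorted cells was extracted with Trizol, per the labels' protocols, and measured on Affymetrix mouse arrays. The deposited intensity values are MAS5 signals, per the submitters' processing notes (version not given in the sources used here). They run from 0.1 to 72213 on a linear scale, and the authors' scaling gave every array a trimmed mean of 500. Of 22690 probe sets, 64 controls were left out, 20380 had 1 gene symbol, 691 several and 1555 none; 20351 were matched to RefSeq by Entrez identifier, which changed 0 symbols. For each of 12393 genes the probe set with the highest mean log2 signal across the 10 arrays was used. Here, signals were converted to log2 after adding 12, with no further normalization. Genes above the array's 40th percentile on at least 2 of 10 arrays were tested (9304).

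One linear model of population means over all 10 arrays was fitted with limma 3.58.1 (R 4.3.3; lmFit, eBayes with a variance trend), which left 5 residual degrees of freedom. The number of arrays, 2 per population, limits the precision. Code was tested on simulated data. Genes are named by a rule: Col4a1, Cdk1 and Clu, the 4 largest interactions per class and direction among genes with clear, non-overlapping layers, and up to 4 called members per list and direction. Other list members are named only to describe their list, and Dst, Fn1, Lamc1, Pcna and others of these were picked after their values were seen. The comparison, its members and the 19 lists were chosen with earlier results of these data known. Alternatives were pseudocounts of 1 and 50, quantile normalization, other filters, the mean of all probe sets, 8 arrays only, array weights, no variance trend, a replicate block, a threshold of 0.01, no bound on the other difference, and leaving arrays out.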

Additional observations from a re-analysis of the deposited data

Results flagged for a closer look

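The layer difference itself differed between gland and duct, by the interaction test, for 1467 genes, and the genes below are listed because of that test. Positive interactions (log2) were found for Fmod (10.35), Scara5 (10.28), Col4a1 (8.38), Myh11 (8.16), Col4a2 (8.13), Tagln (7.63), Pcp4 (7.61), Cnn1 (7.29) and Clu (6.06). Smaller positive values belonged to Casq2 (5.56), Aplnr (5.56), Flna (5.43), Itm2a (5.37), Fhod3 (5.23), Efhd1 (4.95), Cd93 (4.93), Sfrp1 (4.89) and Fam43a (1.43). Negative interactions were found for Racgap1 (-4.95), Prxl2a (-4.24), Cdk1 (-4.20), Fads2 (-4.18), Cks2 (-4.03), Melk (-4.03), Cdca3 (-4.00), Aox3 (-3.94) and Cdhr1 (-3.92). The remaining negative ones were Tagln2 (-3.64), Otud7a (-3.47), Tmem54 (-3.32), Rrm2 (-1.98), Psat1 (-1.83) and Incenp (-1.58).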

How the results depend on the processing

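Of the 70 genes chosen by rule, none changed the sign of its interaction under an alternative in which it was tested; Cd68, Nkd1 and Nuf2 were not tested with the filter at the 60th percentile. Without each of 10 arrays in turn 44 passed, under the 12 other alternatives 51 passed wherever they were tested (Cd68 and Nkd1 in 11 of them), and 39 passed under all. Counts moved more than signs. Leaving out 1 array, or myoepithelial array 1 with 1 duct suprabasal array, gave 615 to 2046 interactions, 283 to 979 gland-only, 98 to 429 duct-only, 26 to 256 opposite and 25 to 206 same-direction genes. The gland difference then passed for 1422 to 3451 genes and the duct difference for 430 to 2094. Duct basal array 2 gave the lowest count in each case except the gland-only genes and the gland difference (myoepithelial array 2). A pseudocount of 1 gave 197 duct-only genes. The 8 gland and duct arrays alone gave 202 duct-only, 81 opposite and 38 same-direction genes and 1002 duct differences, and array weights gave 184, 70, 42 and 625. At an adjusted p of 0.01 there were 459 interactions, 208 gland-only, 72 duct-only, 22 opposite and 17 same-direction genes, 1573 gland differences and 431 duct differences. The cause of these shifts was not tested. Quantile normalization moved the median interaction of all genes to -0.14, against 0.05. With the replicate number as a block, 1937 interactions passed, 1466 of the 1467 among them, and 107 same-direction genes, and among lists with no call otherwise 1 ductal absorption, 1 epidermal differentiation, 1 pericyte and 1 Schwann and melanocyte gene; same-numbered arrays of the 4 sweat gland populations deviated together (r = 0.117 to 0.360), less so with epidermis (0.027 to 0.086), and the labels give the numbers no shared origin. With 2 arrays per population, differences of low genes are bounded loosely.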
